A study of Rattus norvegicus with 72 samples.

Results

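The 8 genes described here encode 7 aldo-keto reductases (Akr7a2, Akr7a3, Akr1c1, Akr1c14, Akr1b8, Akr1a1 and Akr1d1) and the microsomal epoxide hydrolase (Ephx1). They are 8 of the 14217 genes named by probe sets with 1 symbol. Every probe set whose platform gene symbol was, or included, 1 of these names was taken, which gave 11 of the 31042 probe sets that are no controls. Each of the 11 carried 1 symbol, and all 11 passed the filter on dim probe sets. Akr1c14 had 3 probe sets, Akr1d1 had 2 and the other 6 genes had 1 each.

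Aldo-keto reductases are cytosolic enzymes that use NADPH or NADH to turn aldehydes and ketones into alcohols. In liver they detoxify reactive aldehydes from foreign compounds and lipid breakdown, and some convert steroids and bile acid precursors. Microsomal epoxide hydrolase adds water to epoxides, which is one route by which arene oxides left by cytochrome P450 enzymes are cleared. Akr7a3 is known in rat liver as the aflatoxin aldehyde reductase, an enzyme that dietary antioxidants induce through the transcription factor NRF2, which binds antioxidant response elements.

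The cells were primary rat hepatocytes, freshly isolated by collagenase perfusion and kept as a monolayer, with serum for the first hours and then without it, in medium with hydrocortisone and insulin. Total RNA was measured on 72 Affymetrix arrays, 3 for each of 24 groups: 8 compounds at 24 h and 72 h of exposure, and 4 sets of control cultures at the same times. The genotoxic carcinogens were aflatoxin B1 (19 nM), NNK, a nitrosamine of tobacco (625 µM), and 2-nitrofluorene (78 µM). Among the carcinogens that do not damage DNA were Wy-14643 at 250 µM, which activates PPARα, a nuclear receptor for fatty acids, as well as piperonyl butoxide at 13.4 µM and methapyrilene at 8.5 µM. Nifedipine, which blocks calcium channels, at 156 µM and clonidine, which acts on adrenergic receptors, at 277 µM stood for non-carcinogens. Aflatoxin B1, Wy-14643 and clonidine shared 1 control set, 2-nitrofluorene, piperonyl butoxide and nifedipine shared another, and NNK and methapyrilene each had their own. Comparisons within a set therefore share their control arrays. What the control cultures received, and the strain, sex and age of the rats, were not given in the sources used here. Each compound was used at 1 dose, and the doses differ, so a difference between compounds is one between those exposures.

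The 7 measured hepatocyte markers, albumin among them, had medians from 3577 to 6018 MAS5 intensity units (a linear, scaled brightness) and were above the floor on all 72 arrays. The log2 ratio of the β-actin 3′ to 5′ probe sets, a sign of RNA quality, was 1.84 to 2.71 on 10 arrays and 0.355 to 1.11 on the other 62. Of these 10, 8 were all the arrays with D number 3 in their titles, which are the replicate 3 arrays of the aflatoxin B1, Wy-14643 and clonidine set and its control. The others were aflatoxin B1 replicate 1 at 24 h and replicate 2 at 72 h. Times are those of the labels, although Akr1b8, which was lower at 72 h than at 24 h in all 4 control sets, ran the other way on the D number 3 arrays, with values given beside that gene.

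Upstream sequences are printed for the genes with a match to either motif named below, to show what lies next to their starts. RefSeq promoters of build GRCr8 were found for 6 of the 8 genes, by gene ID, and the 250 bases before each start are considered. Akr7a3 (chr5:156876471-156876720, plus strand) and Akr7a2 (chr5:156835339-156835588, plus strand) are neighbours, with 0 protein-coding genes between them. For Ephx1, which has a pair of starts in the table, the one with a motif match is shown (chr13:95263118-95263367, minus strand). Capitals mark matches to GCGTG, the core of the xenobiotic response element, in the first and second sequence, and to TGACNNNGC, the core of the antioxidant response element, in the third, where it lies on the opposite strand.
Akr7a3: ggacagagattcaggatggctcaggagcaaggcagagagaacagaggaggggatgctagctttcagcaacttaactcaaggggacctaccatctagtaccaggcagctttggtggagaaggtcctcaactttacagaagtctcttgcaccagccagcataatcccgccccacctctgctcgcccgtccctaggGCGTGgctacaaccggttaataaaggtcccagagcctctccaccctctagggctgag
Akr7a2: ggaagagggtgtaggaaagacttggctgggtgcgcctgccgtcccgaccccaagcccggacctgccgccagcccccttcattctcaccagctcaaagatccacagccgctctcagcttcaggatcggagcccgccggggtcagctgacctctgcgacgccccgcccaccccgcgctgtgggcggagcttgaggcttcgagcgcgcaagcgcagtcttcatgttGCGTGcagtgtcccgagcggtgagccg
Ephx1: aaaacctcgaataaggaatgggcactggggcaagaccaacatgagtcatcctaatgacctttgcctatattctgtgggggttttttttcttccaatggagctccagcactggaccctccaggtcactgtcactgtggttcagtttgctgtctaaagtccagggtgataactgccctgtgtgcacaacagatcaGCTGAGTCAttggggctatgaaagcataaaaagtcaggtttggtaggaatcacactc
Both motifs were searched on both strands. GCGTG was found before 2 of the 6 genes, starting 57 bases before the Akr7a3 start and 27 bases before the Akr7a2 start, and in 25.9% of the 33469 windows of the same length in the table. TGACNNNGC was found before 1 of the 6 genes, 57 bases before the Ephx1 start shown, and in 10.1% of the windows. The other Ephx1 start had no match to either motif. The counts are by gene and the percentages by window, so they are not fully alike. A match describes these letters only, and no match says nothing of elements farther away.

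Of the 176 member results (11 probe sets in 16 comparisons of a compound with its control), 6 passed an adjusted p of 0.05 in limma's test over all kept probe sets, 4 upward and 2 downward. They belong to 2 genes. Akr7a3 rose after 2-nitrofluorene and after nifedipine at both times, and Akr1c1 fell after nifedipine and after NNK at 72 h. After 2-nitrofluorene 1 of 11 member probe sets passed at 24 h, beside 1.13% of all probe sets tested, and 1 of 11 at 72 h, beside 0.809%. After nifedipine 1 of 11 passed at 24 h, beside 0.46%, and 2 of 11 at 72 h, beside 3.18%. After NNK 0 passed at 24 h, beside 0.92%, and 1 of 11 at 72 h, beside 3.32%. None of the 11 passed after aflatoxin B1, beside 3.33% of all probe sets at 24 h and 4.91% at 72 h, nor after Wy-14643, beside 0.0443% and 7.31%. None passed after clonidine, beside 0.0166% at 24 h and 0.0332% at 72 h, after piperonyl butoxide, beside 0.0887% and 0%, or after methapyrilene, beside 0% at both times.

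**Figure D1:**
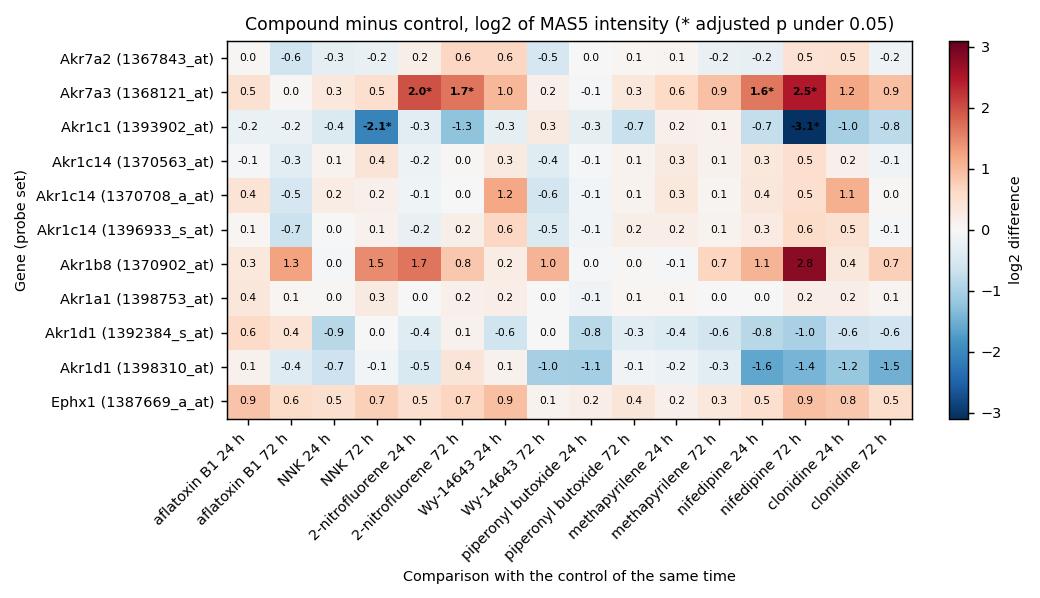
Log2 difference between compound and control for the 11 probe sets (vertical axis) in the 16 comparisons (horizontal axis), with the value in each cell, red for higher and blue for lower than control, and a star for an adjusted p under 0.05. The 4 starred red cells are all Akr7a3 and the 2 starred blue cells are both Akr1c1.

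Akr7a3 reduces the dialdehyde formed from aflatoxin B1 epoxide. Over the 24 control arrays of the 4 sets its lowest, median and highest values were 541, 949 and 1502. The log2 means of its control groups ran from 9.52 (NNK control, 72 h) to 10.17 (methapyrilene control, 24 h). After 24 h of 2-nitrofluorene it was at 3845, 3488 and 3667, against 809, 1205 and 818 in the control. After 72 h it was at 2857, 2937 and 2840, against 800, 814 and 1165. All 6 treated arrays stood far above the 6 control arrays, and the 3 arrays of each treated group lay closer together than those of the control. The rise was 1.98 ± 0.34 (log2 difference ± SE, n = 3 against 3, limma adjusted p = 0.000188) at 24 h and 1.66 ± 0.34 (limma adjusted p = 0.00417) at 72 h.

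Nifedipine, a non-carcinogen in this design, gave the highest Akr7a3 values of the series. At 24 h the arrays were at 2807, 3438 and 2527, and at 72 h at 5578, 5258 and 4490, against the same controls as 2-nitrofluorene. Neither group overlapped with its control. The rise was 1.65 ± 0.34 at 24 h (limma adjusted p = 0.00808) and 2.48 ± 0.34 at 72 h (limma adjusted p = 7.53e-06, n = 3 against 3). The 24 h call was lost when 1 of 3 arrays was left out: control replicate 1 (1.55, limma adjusted p = 0.0955), control replicate 3 (1.55, limma adjusted p = 0.0606) or nifedipine replicate 2 (1.52, limma adjusted p = 0.144). The other 3 calls of Akr7a3 held with each of the 6 arrays left out in turn, the weakest being 2-nitrofluorene at 72 h with a limma adjusted p of 0.0493.

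Piperonyl butoxide, the other compound of that set, left Akr7a3 at 869, 893 and 905 at 24 h and at 1016, 1117 and 1352 at 72 h. These values lay within or just above the control arrays, with differences of −0.06 ± 0.34 and 0.34 ± 0.34 (limma adjusted p = 1 at both times). The compounds were set against each other directly in the same fit, 28 pairs at each time. Of the 616 member results of these pairs 11 passed, and all 11 are given with their genes. The 2-nitrofluorene effect was higher than that of piperonyl butoxide by 2.04 ± 0.34 at 24 h (limma adjusted p = 0.00333, with 0.0277% of all probe sets passing). The nifedipine effect was higher than that of piperonyl butoxide too, the difference of piperonyl butoxide minus nifedipine being −1.71 ± 0.34 at 24 h (limma adjusted p = 0.00415, with 0.377% passing) and −2.14 ± 0.34 at 72 h (limma adjusted p = 0.000106, with 1.19% passing). Between 2-nitrofluorene and nifedipine the difference was 0.34 at 24 h (95% confidence interval −0.345 to 1.02, limma adjusted p = 0.846, with 2.07% of probe sets passing) and −0.82 at 72 h (interval −1.50 to −0.14, limma adjusted p = 0.213, with 3.2% passing), which did not pass and does not show that they act alike.

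**Figure D2:**
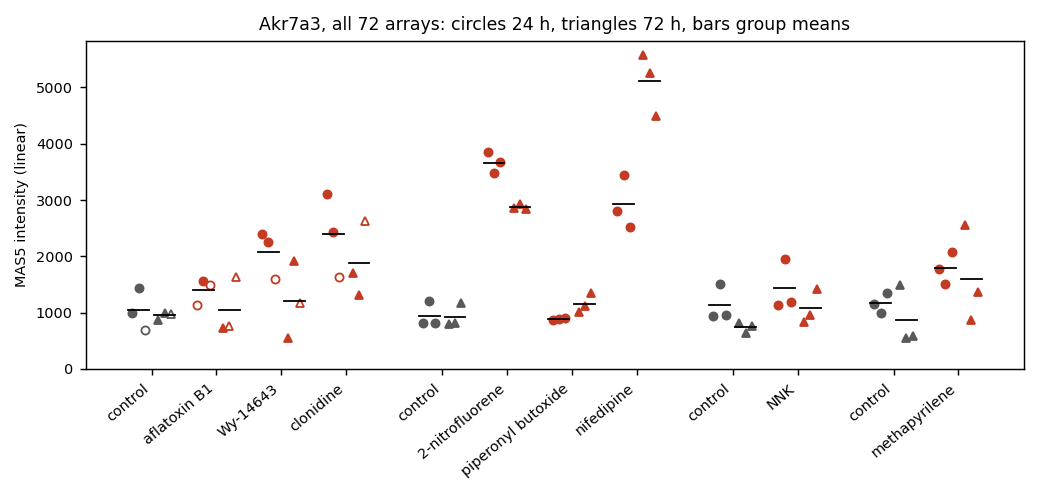
MAS5 intensity of Akr7a3 (vertical axis, linear, from 0) on each array, by control set and compound (horizontal axis), with circles for 24 h, triangles for 72 h, bars for the mean of 3 arrays, grey for controls, red for compounds and open symbols for the 10 arrays of high β-actin ratio. The 2-nitrofluorene and nifedipine arrays lie between 2527 and 5578, above every control array of the series (541 to 1502).

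Aflatoxin B1, whose metabolite this enzyme reduces, left Akr7a3 at 1133, 1564 and 1498 at 24 h, against 1001, 1437 and 697 in the control. At 72 h the values were 724, 761 and 1635, against 878, 991 and 980. The groups overlapped at both times, and the differences were 0.47 ± 0.34 (limma adjusted p = 0.617) and 0.03 ± 0.34 (limma adjusted p = 0.982, n = 3 against 3). At 72 h the aflatoxin B1 effect was below that of 2-nitrofluorene by −1.63 ± 0.48 (limma adjusted p = 0.0452, with 3.1% of probe sets passing) and below that of nifedipine by −2.45 ± 0.48 (limma adjusted p = 0.000654, with 6.05% passing). These 72 h differences include the D number 3 arrays, without which aflatoxin B1 stood at −0.33 ± 0.39 against its control for Akr7a3.

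NNK, the other genotoxic carcinogen, gave Akr7a3 values of 1143, 1957 and 1187 at 24 h and of 837, 963 and 1422 at 72 h, against 937, 1502 and 962 and then 811, 642 and 754. The 72 h groups did not overlap, but the difference of 0.52 ± 0.34 did not pass (limma adjusted p = 0.503). It was below the nifedipine effect by −1.96 ± 0.48 (limma adjusted p = 0.0255, with 0.837% passing).

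Clonidine and Wy-14643 left Akr7a3 above every array of their control at 24 h, without a call. Clonidine was at 3099, 2436 and 1632 (1.21 ± 0.34, limma adjusted p = 0.288), and Wy-14643 at 2390, 2251 and 1592 (1.03 ± 0.34, limma adjusted p = 0.226). At 72 h clonidine was at 1702, 1310 and 2627, again above its 3 controls (0.93 ± 0.34, limma adjusted p = 0.782), while Wy-14643 spread from 541 to 1913 over its controls (0.17 ± 0.34, limma adjusted p = 0.851). Without the D number 3 arrays the Akr7a3 differences were 1.20 for clonidine and 0.95 for Wy-14643 at 24 h, and 0.68 and 0.13 at 72 h, none of which passed. The Wy-14643 effect at 72 h was below that of nifedipine by −2.31 ± 0.48 (limma adjusted p = 0.00375, with 2.39% passing). For clonidine the difference of nifedipine minus clonidine at 72 h was 1.55 (95% confidence interval 0.59 to 2.52, limma adjusted p = 0.39, with 0.0222% passing), which did not pass.

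Methapyrilene gave 1770, 1505 and 2083 at 24 h, above its controls at 1148, 995 and 1352, and 2557, 870 and 1365 at 72 h, beside controls at 1490, 541 and 583. The Akr7a3 differences were 0.62 ± 0.34 and 0.90 ± 0.34 (limma adjusted p = 1 at both times), in comparisons where 0 of 18048 probe sets passed. Over the 16 comparisons Akr7a3 was higher than control in 15, and treated and control arrays did not overlap in 9, always with the treated arrays above. The share of all probe sets with treated arrays above all control arrays ran from 3.52% (Wy-14643 at 24 h) to 13.6% (nifedipine at 72 h).

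The 72 h effect on Akr7a3 was not shown to differ from the 24 h effect for any compound. None of the 88 member tests of that difference passed, where 0.116% of all probe sets passed for nifedipine, 0.00554% for 2-nitrofluorene, 0.0277% for NNK and 0% for the other 5 compounds.

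Akr7a2, the neighbouring gene, encodes a related aldehyde reductase known as succinic semialdehyde reductase. It passed in none of the 16 comparisons, with differences from −0.62 to 0.64. With 2-nitrofluorene for 72 h it was at 881, 709 and 990, above the control at 515, 486 and 662 (0.63 ± 0.25, limma adjusted p = 0.398). Nifedipine at 72 h left it at 791, 702 and 778, again above those controls (0.46 ± 0.25, limma adjusted p = 0.343), whereas at 24 h it was at 634, 657 and 626, below controls at 716, 863 and 702 (−0.24 ± 0.25, limma adjusted p = 0.915). Of all probe sets, 8.75% lay above all controls after 72 h of 2-nitrofluorene and 13.6% after 72 h of nifedipine. After 24 h of nifedipine 10.4% lay below all controls. The difference between the nifedipine effects at the 2 times did not pass for Akr7a2 (0.70, limma adjusted p = 0.674). Aflatoxin B1 at 72 h left it at 443, 346 and 632, against 606, 933 and 618 (−0.62 ± 0.25, limma adjusted p = 0.167). The aflatoxin B1 effect was below that of 2-nitrofluorene at 72 h by −1.25 ± 0.35 (limma adjusted p = 0.0328, with 3.1% passing). The call of Akr7a2 against the aflatoxin B1 control appeared without the D number 3 arrays (−0.94 ± 0.26, limma adjusted p = 0.0122, beside 12.8% of all probe sets) and without aflatoxin B1 replicate 3 (−0.85, limma adjusted p = 0.0478). Over the 24 group means the log2 levels of Akr7a2 and Akr7a3 had a Pearson r of 0.552, a description over groups that share control sets and experiments.

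Ephx1, the epoxide hydrolase, was above its control in all 16 comparisons, by 0.11 to 0.94, and passed in none. The treated arrays stood above every control array in 8 comparisons. After 2-nitrofluorene they were at 6418, 6081 and 6787 at 24 h, against 4681, 4967 and 4038 (0.50 ± 0.33, limma adjusted p = 0.657), and at 6914, 5691 and 5967 at 72 h, against 4334, 3342 and 3992 (0.67 ± 0.33, limma adjusted p = 0.585). After nifedipine they were at 6244, 7451 and 5841 at 24 h (0.51 ± 0.33, limma adjusted p = 0.741) and at 9180, 7978 and 5494 at 72 h (0.93 ± 0.33, limma adjusted p = 0.0995). After NNK they were at 5349, 6147 and 5050 at 24 h, against 3772, 4010 and 3909 (0.50 ± 0.33, limma adjusted p = 0.743), and at 5882, 4907 and 4997 at 72 h, against 3931, 2565 and 3042 (0.74 ± 0.33, limma adjusted p = 0.232). The remaining 2 without overlap were Wy-14643 at 24 h (0.94) and piperonyl butoxide at 72 h (0.37). Of all probe sets, 10.7% at 24 h and 8.75% at 72 h lay above all controls in this way after 2-nitrofluorene. These shares were 8.06% and 13.6% for nifedipine and 11.5% and 13.3% for NNK. They were 3.52% for Wy-14643 at 24 h and 4.39% for piperonyl butoxide at 72 h. The 16 comparisons rest on 8 control groups and are not independent.

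The SE of Ephx1 is shared by all groups, and its control in the aflatoxin B1 set held 4296, 5271 and 1180 at 24 h, the low value being the D number 3 array. Without the 10 high actin arrays the same Ephx1 differences passed after 72 h of nifedipine (limma adjusted p = 0.000263), NNK (limma adjusted p = 0.0023) and 2-nitrofluorene (limma adjusted p = 0.0161). In that fit 9.65%, 10.7% and 2.33% of all probe sets passed in these comparisons. Aflatoxin B1 gave 3767, 6695 and 6637 at 24 h (0.88 ± 0.33, limma adjusted p = 0.146). That difference was 1.29 and passed without control replicate 2 (limma adjusted p = 0.0215), and it was 0.08 without the D number 3 arrays (limma adjusted p = 0.925). The aflatoxin B1 difference at 24 h also passed with the D number as a block, beside 6.21% of all probe sets. For Wy-14643 at 24 h Ephx1 passed only when control replicate 2 was left out.

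Akr1b8 encodes an aldose reductase-like enzyme that takes aliphatic and aromatic aldehydes. After 24 h of 2-nitrofluorene it was at 194, 196 and 149, against 63.9, 65.5 and 43.1 in the control (1.66 ± 0.87, limma adjusted p = 0.498). After 24 h of nifedipine it was at 126, 123 and 107 (1.06 ± 0.87, limma adjusted p = 0.859), and after 72 h at 99.1, 194 and 303, against 13.6, 45.1 and 28.9 (2.79 ± 0.87, limma adjusted p = 0.0621). In these 3 comparisons the treated arrays of Akr1b8 lay above every control array, beside 10.7%, 8.06% and 13.6% of all probe sets. None of the 3 passed with the spread pooled over all arrays. The 72 h nifedipine difference of Akr1b8 passed in 6 of 10 other settings. It passed with log2(value + 16) (2.19, limma adjusted p = 0.0156) and with quantile normalization (2.95, limma adjusted p = 0.0466). It also passed with the D number as a block, with the 6 arrays alone, and without the high actin or the D number 3 arrays. In the 6 fits that left out 1 array it passed in 0 (limma adjusted p from 0.101 to 0.232). In the 72 h groups of NNK 1 array stood apart from the others in both groups, replicate 2, at 231 with NNK and 80.8 in the control, beside 59.8 and 62.8, and 20.7 and 25.0 (1.46 ± 0.87, limma adjusted p = 0.442).

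The wide error of Akr1b8 has its largest values in the aflatoxin B1, Wy-14643 and clonidine set. There the D number 3 arrays labelled 72 h were at 79.5 in the control, 116 with aflatoxin B1, 120 with Wy-14643 and 122 with clonidine, while the other arrays labelled 72 h were between 0.936 and 14.4, apart from 48.3 on aflatoxin B1 replicate 2. At 24 h the D number 3 arrays were the lowest of their group in all 4 groups, from 22.7 to 33.5. Without the high actin arrays Akr1b8 passed after nifedipine at 72 h (limma adjusted p = 0.000205), 2-nitrofluorene at 24 h (limma adjusted p = 0.0409, beside 4.37% of all probe sets) and NNK at 72 h (limma adjusted p = 0.0472).

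**Figure D3:**
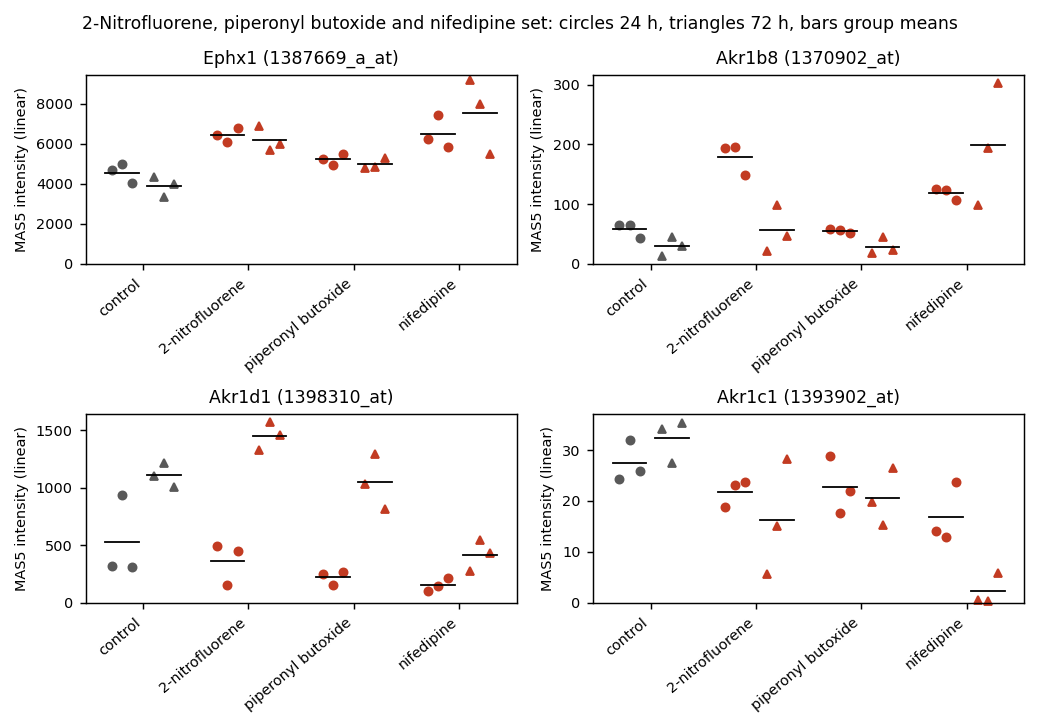
MAS5 intensity (vertical axes, linear, from 0) of Ephx1, Akr1b8, Akr1d1 and Akr1c1 on each array of the set of 2-nitrofluorene, piperonyl butoxide and nifedipine with its control (horizontal axes), with circles for 24 h, triangles for 72 h and bars for the mean of 3 arrays. At 72 h the nifedipine arrays of Ephx1 and Akr1b8 lie above, and those of Akr1d1 (probe set 1398310_at, the one drawn) and Akr1c1 below, all 3 control arrays.

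Akr1a1, the general aldehyde reductase that also takes part in vitamin C synthesis in rodents, was the steadiest of the 8 genes. Its 72 values ran from 1694 to 3341, and the differences from control from −0.12 to 0.35, none of which passed. The largest was after 24 h of aflatoxin B1, at 2601, 2500 and 3102 against 2276, 2507 and 1694 (0.35 ± 0.11, limma adjusted p = 0.057). The lowest of these controls was the D number 3 array, and the difference for Akr1a1 was 0.09 without the D number 3 arrays and 0.07 without the high actin arrays. Leaving out aflatoxin B1 replicate 2 (0.42, limma adjusted p = 0.0447) or control replicate 2 (0.47, limma adjusted p = 0.0112) brought Akr1a1 past the threshold. It also passed with a filter on dim probe sets at the 75th percentile, beside 4.56% of all probe sets. With the D number as a block it passed too, beside 6.21%.

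Akr1d1 encodes the 5β-reductase that acts on steroids and on intermediates of bile acid synthesis. Its probe set 1398310_at was lower after nifedipine at both times: 107, 144 and 218 at 24 h, against 324, 940 and 316, and 278, 545 and 437 at 72 h, against 1102, 1216 and 1008. The groups did not overlap at either time, and the differences were −1.61 ± 0.61 (limma adjusted p = 0.307) and −1.45 ± 0.61 (limma adjusted p = 0.193). The other probe set, 1392384_s_at, was at 83.0, 65.6 and 180 and then at 124, 116 and 220, with differences of −0.85 ± 0.44 and −1.01 ± 0.44 (limma adjusted p = 0.591 and 0.209), and overlapped with its controls at both times. With 2-nitrofluorene at 72 h, 1398310_at was at 1328, 1570 and 1461, above all 3 controls (0.39 ± 0.61, limma adjusted p = 0.961). After clonidine 1398310_at was lower by −1.18 and −1.49 at 24 h and 72 h, with overlap at both times (limma adjusted p = 0.763 and 0.94). After 24 h of piperonyl butoxide both probe sets lay below the same controls as nifedipine without overlap (−1.06 ± 0.61 and −0.85 ± 0.44), without a call. The probe set 1392384_s_at did so too after 24 h of NNK (−0.87 ± 0.44, limma adjusted p = 0.566) and clonidine (−0.64 ± 0.44, limma adjusted p = 0.897). Of all probe sets, 10.4% at 24 h and 20.2% at 72 h lay below all controls after nifedipine. At 24 h this share was 7.24% for piperonyl butoxide, 9.86% for NNK and 4.37% for clonidine. After 72 h of 2-nitrofluorene 8.75% lay above all controls. Of the 16 comparisons, 1398310_at was above control in 3 and 1392384_s_at in 5. The Pearson r between both probe sets of Akr1d1 over the 24 group means was 0.671.

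In the control of the 2-nitrofluorene set, 1398310_at was higher at 72 h than at 24 h by 1.27 ± 0.61 (limma adjusted p = 0.262), and in the methapyrilene control lower by −0.99 ± 0.61 (limma adjusted p = 0.523). None of the 44 tests of culture time in the controls passed for the members, beside 2.85% of all probe sets in the NNK control, 2.71% in the 2-nitrofluorene set, 0.51% in the methapyrilene control and 0% in the aflatoxin B1 set. Nor did any of the 22 tests between the NNK control and that of the 2-nitrofluorene set, where 0% of all probe sets passed at either time.

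Akr1c14 is the rat 3α-hydroxysteroid dehydrogenase, which reduces steroid ketones and binds bile acids. None of its 3 probe sets passed in any comparison. The highest values of 1370708_a_at were after 24 h of nifedipine (3804, 3360 and 2709, against 2073, 3291 and 2393), a difference of 0.36 ± 0.72 (limma adjusted p = 0.995). After 24 h of methapyrilene all 3 probe sets of Akr1c14 lay above their controls without overlap, 1370563_at at 1400, 1410 and 1415 against 1070, 1216 and 1231 (0.27 ± 0.33, limma adjusted p = 1). In that comparison 4 of the 11 member probe sets stood above all controls, beside 6.16% of all probe sets, and 3 of the 4 are of this 1 gene.

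The largest spread of Akr1c14 followed the β-actin ratio. On the 10 arrays of high ratio 1370708_a_at was between 87.8 and 1210, with a median of 425, and on the other 62 between 1234 and 3804, with a median of 2264, so that the groups did not overlap. For 1396933_s_at the ranges were 232 to 944 and 925 to 2559, and for 1370563_at 397 to 805 and 515 to 1720. In the 24 h control of the aflatoxin B1 set 1370708_a_at was at 2067, 1592 and 87.8. The part of RNA quality in these values was not tested. With aflatoxin B1 at 72 h the 3 arrays were at 2556, 373 and 656, against 2263, 2616 and 310 (−0.52 ± 0.72, limma adjusted p = 0.782). Without the D number 3 arrays the difference for 1370708_a_at was −1.32 (limma adjusted p = 0.0358), in a group of 2 arrays of which 1 has a high ratio, and without all 10 high actin arrays it was 0.07 (limma adjusted p = 0.967), with 1 aflatoxin B1 array that is assumed to vary like the other groups.

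**Figure D4:**
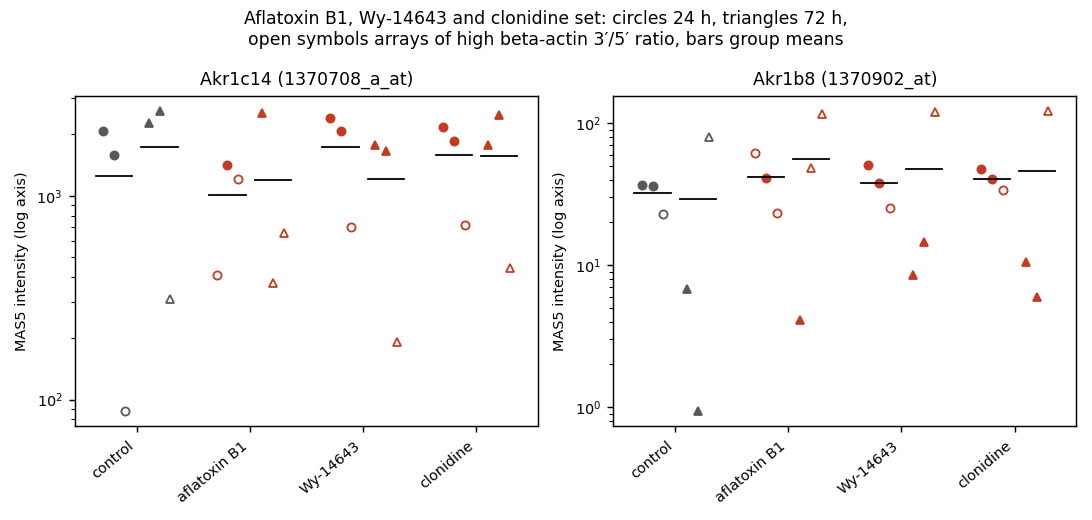
MAS5 intensity (vertical axes, logarithmic) of Akr1c14 (1370708_a_at) and Akr1b8 on each array of the set of aflatoxin B1, Wy-14643 and clonidine with its control (horizontal axes), with circles for 24 h, triangles for 72 h, open symbols for the 10 arrays of high β-actin ratio and bars for the mean of 3 arrays. The open symbols of Akr1c14 all lie at or below 1210 and the filled ones above it, and for Akr1b8 the open triangles lie above the filled ones.

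The other probe sets separated less by the ratio. Ephx1 was between 1180 and 6637 on the 10 arrays and between 2309 and 9180 on the others, and Akr7a3 between 697 and 2627 and between 541 and 5578. For Akr1d1, 1392384_s_at had the higher median on the 10 arrays (442 against 222) and 1398310_at the lower (496 against 652). A suffix _s_at marks, in the maker's naming, a probe set that can match transcripts of more than 1 gene, which holds for 1396933_s_at and 1392384_s_at. Aldo-keto reductases of the 1C group are much alike in sequence, and 5 other genes of that group lie between Akr1c1 and Akr1c14 in RefSeq's GRCr8 annotation, so a share of either signal from a relative cannot be told apart.

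Akr1c1 encodes another hydroxysteroid dehydrogenase of the same cluster. Its 1 probe set was dim, with a median of 21.4 over the 72 arrays beside the filter's 19.74, and 3 arrays lay at or under the floor of 3.117. Nifedipine at 72 h left it at 0.525, 0.370 and 5.86, against 34.1, 27.5 and 35.4. All 3 arrays were below the controls, 2 of them under the floor, and with the floor the difference was −3.06 ± 0.59 (limma adjusted p = 0.00134, n = 3 against 3). Its size depends on the floor, being −1.41 on the log2(value + 16) scale and −4.09 with a lower floor, and the call held in both. It held too with each of the 6 arrays left out (−3.37 to −2.91). After 24 h the arrays were at 14.1, 12.9 and 23.7, against 24.3, 32.0 and 25.9 (−0.74 ± 0.59, limma adjusted p = 0.847), and the difference between the effects at both times did not pass (−2.32, limma adjusted p = 0.438). The nifedipine effect on Akr1c1 at 72 h was below those of Wy-14643 (difference of Wy-14643 minus nifedipine 3.34, limma adjusted p = 0.0209, with 2.39% passing), aflatoxin B1 (2.86, limma adjusted p = 0.03, with 6.05% passing) and piperonyl butoxide (2.38, limma adjusted p = 0.0294, with 1.19% passing).

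With NNK at 72 h Akr1c1 was at 3.59, 7.60 and 17.3, against 28.3, 30.6 and 40.3, again without overlap. The difference was −2.07 ± 0.59 (limma adjusted p = 0.0364). It did not pass when any 1 of 5 arrays was left out (the 3 controls and NNK replicates 1 and 2, −2.17 to −1.51, limma adjusted p from 0.0689 to 0.302), with log2(value + 16), with a lower floor, without the filter or in a fit of these 6 arrays alone. Over the 16 comparisons Akr1c1 lay below its controls without overlap in 7 and above in 0, among them 2-nitrofluorene at 24 h (18.8, 23.1 and 23.6) and clonidine at 24 h (9.23, 10.4 and 10.1, against 24.1, 16.9 and 20.0), neither of which passed. The share of all probe sets with treated arrays below all control arrays ran from 3.36% (methapyrilene at 72 h) to 20.2% (nifedipine at 72 h), and was 15.1% for NNK at 72 h and 12.5% for 2-nitrofluorene at 24 h.

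At 72 h of nifedipine 6 member probe sets lay above all controls, beside 13.6% of all probe sets, and 2 below, beside 20.2%. Arrays of nifedipine and its control with the same D number deviated together. With the D number as a block 5 of the 11 passed, beside 7.78% of all probe sets. With that block Akr1b8 (limma adjusted p = 0.0197) and Ephx1 (limma adjusted p = 0.019) rose and Akr1d1 1398310_at fell (limma adjusted p = 0.0483), besides Akr7a3 and Akr1c1.

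The genes of NRF2's set, taken from what is known of the pathway, were described in the same comparisons, 1 probe set per gene. They were listed with earlier results of these data known, so the counts are a description only. Of 22 measured, 7 rose and 0 fell after 24 h of nifedipine, with a median difference of 0.99 beside −0.03 over all genes, and 13 rose and 0 fell after 72 h, with a median of 1.49 beside −0.05. At 72 h the largest were the heme oxygenase Hmox1 (3.58 ± 0.54), the glutathione transferases Gstp1 (3.45 ± 0.52) and Gsta3 (2.89 ± 0.72) and the quinone reductase Nqo1 (2.89 ± 0.52), all past the threshold. At 24 h they were Hmox1 (2.74 ± 0.54), the sulfiredoxin Srxn1 (2.19 ± 0.41), Gclc, the catalytic subunit that makes glutathione's precursor (1.51 ± 0.34), and Ugdh, which makes UDP-glucuronic acid (1.27 ± 0.27). After 2-nitrofluorene 4 rose at 24 h with a median of 0.66, namely Gsta3 (2.90 ± 0.72), Gstp1 (1.99 ± 0.52), Nqo1 (1.90 ± 0.52) and the malic enzyme Me1 (1.34 ± 0.35), and 2 rose at 72 h with a median of 0.27, Gstp1 (2.00 ± 0.52) and Gsta4 (1.33 ± 0.27). In the NNK cultures at 72 h the transporter Abcc2 (1.39 ± 0.24) and Gsta1 (0.81 ± 0.21) rose.

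Members of the NRF2 set also passed where no member of the family described here did, and these genes are named after their values were seen. After 72 h of Wy-14643 5 of the 22 rose, Hmox1 (1.96 ± 0.54), Gstp1 (1.76 ± 0.52), the transporter Abcc4 (1.46 ± 0.30), Me1 (1.42 ± 0.35) and Abcc2 (0.94 ± 0.24), and Gstm1 fell (−0.51 ± 0.15), with a median of 0.35 over the set. This count is above that of 2-nitrofluorene at 72 h. Hmox1 rose after 72 h of clonidine (3.11 ± 0.54). The medians of the set after clonidine, 0.71 at 24 h and 0.64 at 72 h, with 21 and 20 of the 22 above control, were above the 0.27 of 2-nitrofluorene at 72 h. After 24 h of Wy-14643 all 22 were above control, with a median of 0.36 and 0 passing. The cystine carrier Slc7a11 fell after aflatoxin B1 at 24 h (−1.67 ± 0.41) and at 72 h (−1.76 ± 0.41). After piperonyl butoxide, methapyrilene and 24 h of NNK 0 of the 22 passed, with medians from 0.17 to 0.32.

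Of 5 measured targets of AhR, the receptor that binds the xenobiotic response element, Cyp1a1 alone rose after nifedipine (3.45 ± 0.81 at 24 h and 5.03 ± 0.81 at 72 h) and after 72 h of 2-nitrofluorene (3.87 ± 0.81), and Nfe2l2, the gene of NRF2 itself, alone after NNK (0.97 ± 0.16 at both times). Of 12 measured targets of CAR and PXR, Por rose after 72 h of nifedipine (1.13 ± 0.28) and Ces2c after 72 h of NNK (1.66 ± 0.40). Of 12 genes of bile acid and steroid conversion, 0 passed after nifedipine, Hsd17b4 rose after 24 h of 2-nitrofluorene (1.05 ± 0.23), and Cyp8b1 (3.36 ± 0.74) and Hsd17b4 (1.22 ± 0.23) after 72 h. Of 7 other aldo-keto reductases and epoxide hydrolases measured, 0 passed in any of the 16 comparisons. All 6 measured PPARα targets rose after 2-nitrofluorene at both times, as after 72 h of Wy-14643, and 3 of the 6 rose after 24 h of piperonyl butoxide. Where no member passed, 1 of the 5 AhR targets rose after aflatoxin B1, Nfe2l2 at 24 h (0.55 ± 0.16) and Tiparp at 72 h (0.75 ± 0.18), and Cyp1a1 fell after 72 h of Wy-14643 (−2.98 ± 0.81). Of the 12 CAR and PXR targets Aldh1a1 and Ces2c rose after aflatoxin B1 at both times, and after 72 h of Wy-14643 Abcb1a rose (1.72 ± 0.39) and Cyp3a18 fell (−2.26 ± 0.60). Of the 12 bile acid and steroid genes 4 fell after 72 h of Wy-14643, Cyp7a1, Hsd11b1, Cyp27a1 and Scp2.

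Markers of other cells were measured in the same cultures. Of 15 macrophage markers 3 fell after 72 h of nifedipine and 14 lay below control, with a median of −1.54, and their summed level was 541 to 1214 beside 991 to 2204 in the control. After 72 h of 2-nitrofluorene 0 of the 15 passed, with a median of −1.12 and a summed level of 572 to 1282. At 24 h the medians were −0.39 after nifedipine and −0.63 after 2-nitrofluorene, with 0 passing. For NNK at 72 h the median was 0.08. Macrophage markers moved also where no member passed. After Wy-14643 the median was −0.80 at 24 h, with 0 passing, and −1.65 at 72 h, with 4 of the 15 falling. After aflatoxin B1 the medians were 0.66 at 24 h and 1.07 at 72 h, with 0 passing. None of the 15 had its median at the floor, the dimmest being Ptprc (13.8) and Aif1 (16.2). In these lists fewer cells of a type and less RNA per cell cannot be told apart.

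Stellate cell markers, of which Vim gives most of the signal, had a summed level of 767 to 995 after 24 h of 2-nitrofluorene beside 1511 to 2157 in the control, and of 914 to 1353 beside 1682 to 2400 at 72 h. Neither pair of ranges overlapped, while 0 of the 8 tested passed (medians −0.55 and −0.36). After 24 h of piperonyl butoxide the stellate sums lay below the same control too (972 to 1308). They also lay below their own control after 24 h of NNK (1320 to 1674 beside 1807 to 2049). The same held after 72 h of Wy-14643 (451 to 1793 beside 1847 to 3916). Vim fell after aflatoxin B1 at 24 h (−1.58 ± 0.42) and 72 h (−1.83 ± 0.42), and after 72 h of Wy-14643 (−1.90 ± 0.42). After nifedipine the stellate sums were 1148 to 1786 at 24 h and 1871 to 2089 at 72 h, overlapping with the controls of that set. Bile duct markers, nearly all Epcam signal, summed to 584 to 748 after 72 h of nifedipine beside 805 to 1000 in the control, without overlap, and to 641 to 806 after 72 h of 2-nitrofluorene. Both tested bile duct markers were below control after 72 h of nifedipine (median −1.56) and 0 passed, and Krt7, Krt19 and Spp1 had all-array medians under the floor. Endothelial sums lay above the control after 24 h of 2-nitrofluorene (135 to 158 beside 112 to 130). They did so too after 24 h of piperonyl butoxide (136 to 145). After 24 h of nifedipine they were 105 to 112.1, just below the lowest control sum of 112.3. In the NNK cultures at 72 h the sums of stellate, endothelial and bile duct markers all overlapped with their control.

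The hepatocyte markers were read in the same way. All 7 were below control after 24 h of 2-nitrofluorene, with a median of −0.32, and Ahsg fell (−0.97 ± 0.25). Their summed level there was 30570 to 37100 beside 38010 to 53790 in the control, without overlap. After 24 h of nifedipine all 7 were below control as well (median −0.19, 0 passing), and after 72 h 6 of the 7 were above control with 2-nitrofluorene and 5 with nifedipine. After 72 h of Wy-14643 3 of the 7 fell, Ahsg (−1.70 ± 0.25), Apoa1 (−0.98 ± 0.24) and Ttr (−0.59 ± 0.16), with a median of −0.59. The part of any of these cell types in the member values was not tested.

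By their levels over the 24 group means of log2 values, the genes most like Akr7a3 were Ptgr1 (Pearson r = 0.857), Ugdh (0.856) and Gclm (0.822). For Akr1b8 they were Nqo1 (0.878), Rps3 (0.826) and Slc17a3 (0.817), and for Ephx1 Slc35e3 (0.843), Esd (0.83) and Pgrmc1 (0.803). For Akr7a2 they were Hebp1 (0.908), Echs1 (0.884) and Reep6 (0.877), for Akr1d1 Inpp1 (0.821), Ubd (0.803) and Cyp2c12 (0.752), and for Akr1c1 Sdhaf1 (0.775), Tcf4 (0.749) and Hip1 (0.736). For Akr1c14, whose spread followed the β-actin ratio, they were Vps52 (0.936), Entr1 (0.934) and Copb1 (0.923), and for Akr1a1 Smu1 (0.916), Ppil2 (0.9) and Morf4l1 (0.894). These are descriptions over groups that share control sets and experiments. Among the members, the group means of Akr7a3 had an r of 0.781 with Ephx1, of 0.616 with Akr1b8 and of −0.606 with Akr1c1. Akr1b8 and Ephx1 had an r of 0.743, and the 3 probe sets of Akr1c14 had r of 0.919 to 0.978 with each other.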

How the data were processed

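The deposited values are linear intensities from Affymetrix's MAS5 algorithm, per the labels' processing notes, one per probe set and array, and each array's trimmed mean is 99.99. MAS5 treats each array alone, so array differences stay in the values. The version was not given in the sources used here. Array medians ran from 15.76 to 23.8. The number of arrays limits the precision. Values below the 20th percentile of all values (3.117) were set to it before taking log2. Apart from the 57 controls, those probe sets were tested for which a group mean reached the median of all values, 19.74, in all 18048 of 31099.

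limma 3.58.1 in R 4.3.3 was fitted to 24 group means (lmFit, eBayes with an intensity trend, 48 residual degrees of freedom), with Benjamini-Hochberg adjustment over all kept probe sets within a comparison and 0.05 as the threshold. Each compound was set against its control at the same time. The same fit gave time and compound differences and control contrasts. Data were also simulated for nifedipine at 72 h, with independent normal noise on each array and 1 spread per probe set in all groups. There 53% of the probe sets changed by 1 on the log2 scale were recovered, 83.6% of those by 2 and 98.5% by 3. Of 164 called, 7 were false. Deviations shared by D number and a spread that differs between groups were not simulated, so these rates hold for that setting only.

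The submitters' labels name separate biological experiments, without saying what they share. Groups, replicate numbers and D numbers came from titles. Arrays of equal D number deviated together (every correlation of deviations above 0.1) in 14 of 16 comparisons. They did not for aflatoxin B1 at 24 h (lowest −0.265) or 72 h (−0.286). The D number was therefore also fitted as a block. The members and gene lists were chosen with earlier results of these data known. The genes named are the members, the 3 kept genes with group means most like each member's, and up to 4 called genes per list in comparisons where a member passed, with list genes of other comparisons named after their values were seen. Symbols came from the platform annotation, and all 8 members matched RefSeq by gene ID. Lists had 29 NRF2, 17 CAR and PXR, 8 AhR, 14 bile acid and steroid, 20 other aldo-keto reductase and epoxide hydrolase and 8 PPARα genes before filtering. No liver data were analysed here.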

Additional observations from a re-analysis of the deposited data

How the results depend on the processing

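The alternatives were a lower floor (10th percentile), log2(value + 16), no filter, a filter at the 75th percentile, quantile normalization, no intensity trend and the D number block. Other alternatives were fits of only the compound and its control, fits without the high actin or the D number 3 arrays, and each array left out. The counts of member probe sets that passed did not change in NNK at 24 h, piperonyl butoxide, methapyrilene and clonidine under any of these, all being 0. Percentages in brackets are the share of all probe sets that passed in the same fit. After 72 h of nifedipine the count of 2 (3.18%) became 1 with the filter at the 75th percentile (4.76%), which leaves Akr1c1 untested. It was 3 with log2(value + 16) (3.22%) and with quantile normalization (2.65%), Akr1b8 being added. It was 5 with the D number block (7.78%) and in the fit of only the compound and its control (9.57%). It was 4 without the high actin arrays (9.65%) or without the D number 3 arrays (7.42%). After 72 h of NNK the count of 1 (3.32%) became 0 with the lower floor (3.22%), log2(value + 16) (3.63%) and no filter (1.87%). It was also 0 with the filter at the 75th percentile (5.08%) and with only the compound and its control (3.72%). It was 3 without the high actin arrays (10.7%) and 2 without D number 3 (7.37%). After 2-nitrofluorene the count of 1 (1.13% at 24 h and 0.809% at 72 h) became 2 at both times in 2 settings. These were the fit of only the compound and its control (2.37% and 2.16%) and that without the high actin arrays (4.37% and 2.33%). After 24 h of aflatoxin B1 the count of 0 (3.33%) became 1 with the filter at the 75th percentile (4.56%), Akr1a1. It was 2 with the D number block (6.21%), Akr1a1 and Ephx1, in a comparison where the D numbers did not pair. At 72 h the count of 0 (4.91%) became 3 without D number 3 (12.8%). With the filter at the 75th percentile fewer probe sets were tested, and the cause of the other changes was not tested. With 1 array left out the count ran from 0 to 2 for aflatoxin B1 at 24 h (1.7% to 3.7%). It ran from 0 to 1 for aflatoxin B1 (1.53% to 8.9%), NNK (1.22% to 3.29%) and Wy-14643 (2.33% to 15.1%) at 72 h. The same held for Wy-14643 (0.00554% to 1.19%) and nifedipine (0.0499% to 0.831%) at 24 h. The count stayed at 1 for 2-nitrofluorene (0.521% to 1.09% at 24 h and 0.216% to 0.892% at 72 h). It stayed at 2 for nifedipine at 72 h (0.837% to 2.37%). No called member changed direction under any of these alternatives. Apart from nifedipine at 72 h and aflatoxin B1 at 24 h, the block changed no member's call. Groups of 3 arrays, dim probe sets (Akr1c1, Akr1b8) and the arrays of high actin ratio limit what could pass.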
